A study of Homo sapiens with 9 samples.

Results

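The genes described here are 9 regulators of the epithelial state: the transcription factor genes ELF3, EHF, GRHL1, GRHL2, OVOL1, OVOL2 and KLF5 and the splicing factor genes ESRP1 and ESRP2. They were chosen by name, with earlier results of these data known. Each had 1 probe set, so that 9 of the 24733 probe sets on the arrays, and 9 of the 23931 genes tested, are members. They were measured in H2009, an established line of human lung adenocarcinoma cells that carries CRISPRa: a Cas9 without nuclease activity (dCas9) fused to the activators VP64, p65 and Rta, which a guide RNA brings to a chosen site. The 3 groups were a clone with the guide sgRNA-A, a clone with the guide sgRNA-B, both made to raise the microRNAs of the 14q32 region, and control cells that received the guide vector without a guide; the cells of every group were kept in blasticidin and had no other treatment. Each group had 3 arrays. Each guide is represented by 1 clone, so a guide's effect and a property of its clone cannot be told apart, and p-values cover the spread between cultures.

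Epithelial cells hold their junctions, polarity and transcript isoforms through a small set of factors that act on each other. ELF3 and EHF are ETS-domain activators of epithelial genes, the grainyhead-like factors GRHL1 and GRHL2 bind enhancers of adhesion genes, the zinc finger repressors OVOL1 and OVOL2 hold down drivers of the mesenchymal state such as ZEB1, and KLF5 is a zinc finger activator of epithelial growth genes. ESRP1 and ESRP2 are RNA-binding proteins that select the epithelial exons of transcripts such as those of FGFR2, CD44 and CTNND1.

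All levels are log2 units of arrays made equal in distribution (RMA), so a difference of 1 is a doubling of signal. Levels of different probe sets are not compared. All 9 regulators lay above 4.49 log2 units on average, the 95% point of the means of 374 olfactory receptor genes, taken as the level of silent genes. The 6 lung epithelial markers set out for the check of the cell type (EPCAM, CDH1, KRT7, KRT8, KRT18 and KRT19) lay above it too, and the 4 endothelial markers did not. Correlations between arrays were 0.9970 to 0.9982 within groups and 0.9958 to 0.9980 between groups. Replicate 3 of sgRNA-A stood farthest from the other arrays of its group, at a root mean square distance of 0.168, against 0.126 to 0.146 for the other 8 arrays.

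GRHL1 and ELF3 fell in the sgRNA-A clone, and no other member passed the test in a comparison of a single guide with control. The test is limma's moderated test over all 23931 genes. "Rose" and "fell" are used where the Benjamini-Hochberg adjusted p was below 0.05. With sgRNA-A, 2 of 9 members fell, 0 rose and 7 did not pass, where 2.18% of all genes were called, 1.22% fell and 0.957% rose. With sgRNA-B, 0 of 9 were called, where 3.07% of all genes were (1.51% fell, 1.56% rose), and the unadjusted p was below 0.05 for 4 of 9, against 14.7% of all genes. With sgRNA-A that count was 5 of 9, against 13.4%. The median log2 fold change of the 9 was -0.13 for the first guide and -0.10 for the second, beside 0.0036 and -0.0039 over all genes. The comparisons share the control arrays. Because the members were chosen with earlier results of these data known, these counts and medians are a description beside all genes. In cultures measured in bulk, fewer cells with a transcript and less of it per cell cannot be told apart.

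**Figure D1:**
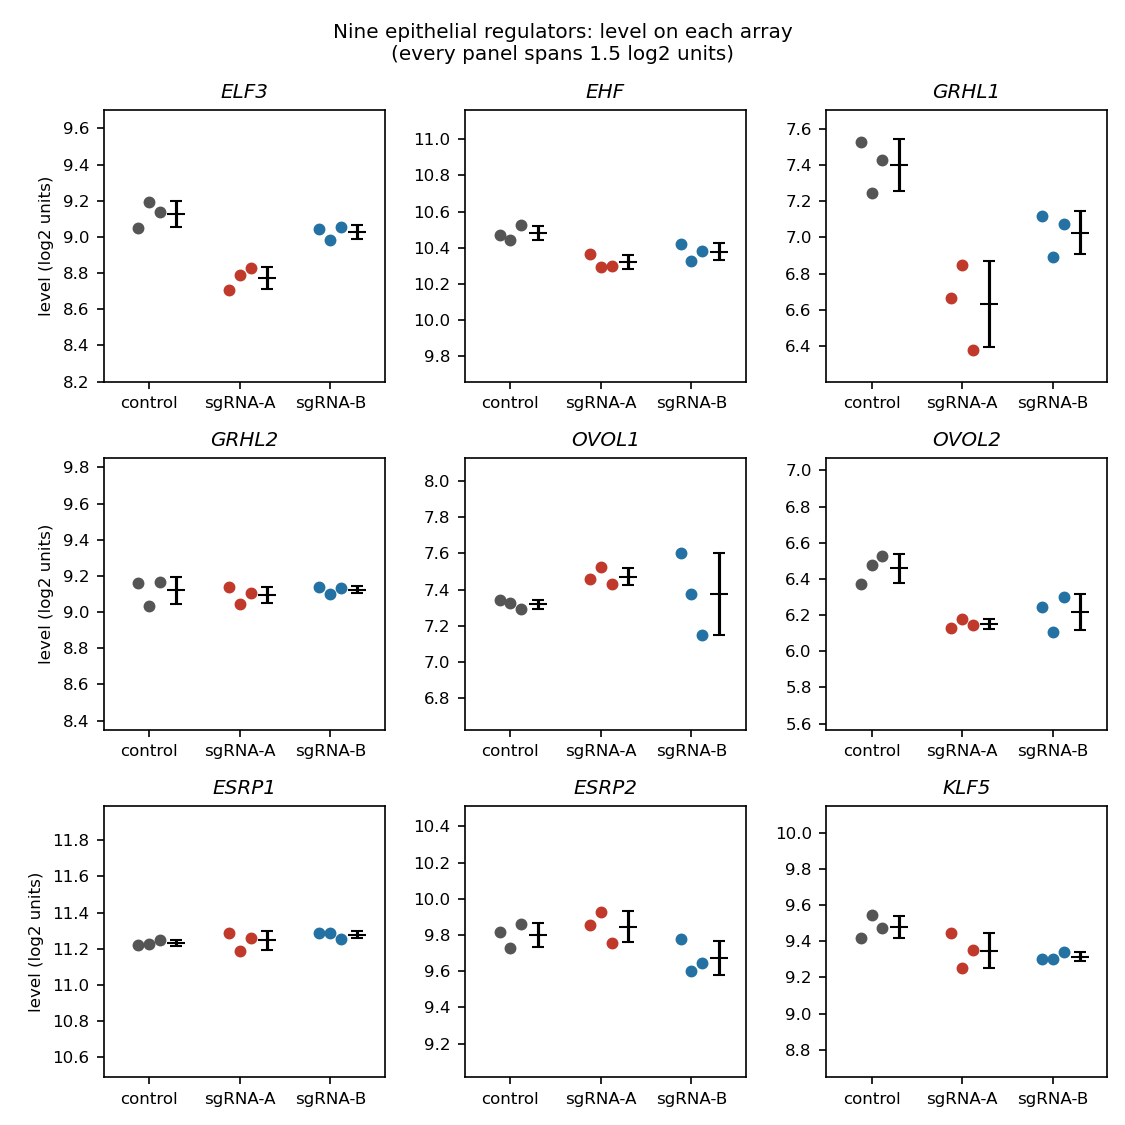
Level of each regulator on every array (vertical axis, log2 units; all panels span the same height), with dots for the 3 arrays of a group and a bar for the group's mean ± SD. GRHL1 and ELF3 stand lower on the sgRNA-A arrays than on all other arrays, while GRHL2 and ESRP1 lie within 0.13 and 0.10 log2 units over all 9 arrays.

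The promoters of GRHL1 and ELF3, the members that fell, are shown so that their sequence can be read beside the values that follow. Each is 300 bases of RefSeq's GRCh38.p14 assembly on the + strand, from 250 bases before the annotated start of the transcript to 50 bases after it, at chr2:9951443-9951742 for GRHL1 and chr1:202010337-202010636 for ELF3. Capitals mark any match, on either strand, to 5 motifs: AACCNGTT of GRHL factors, CCGGAAG of ETS factors, CAGGTG of the E-box that ZEB and SNAI repressors bind, CCGTTA of OVOL factors, and GGGCGG, the GC box of SP and KLF factors.
GRHL1: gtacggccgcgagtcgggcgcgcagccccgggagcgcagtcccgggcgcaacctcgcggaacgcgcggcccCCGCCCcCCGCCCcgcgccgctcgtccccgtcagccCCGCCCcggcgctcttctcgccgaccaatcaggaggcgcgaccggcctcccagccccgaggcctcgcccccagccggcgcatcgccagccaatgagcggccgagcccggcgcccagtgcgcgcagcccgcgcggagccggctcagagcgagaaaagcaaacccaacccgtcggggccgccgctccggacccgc
ELF3: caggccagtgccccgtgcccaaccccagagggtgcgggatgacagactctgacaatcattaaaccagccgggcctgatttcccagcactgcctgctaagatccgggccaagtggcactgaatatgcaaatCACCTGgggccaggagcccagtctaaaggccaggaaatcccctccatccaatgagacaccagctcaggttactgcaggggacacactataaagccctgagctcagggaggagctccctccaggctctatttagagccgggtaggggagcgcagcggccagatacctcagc

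The GRHL1 window is 79.7% G and C with 52 CpG dinucleotides. It has 3 matches to the GC box, with first bases 179, 172 and 143 bases before the start, and none to the other 4 motifs. The ELF3 window is 59.0% G and C with 7 CpG dinucleotides, and its 1 match is an E-box, read as CACCTG on the printed strand, 120 bases before the start. Over 35116 promoter windows of the same length, 45.0% hold the GC box, 20.6% this E-box, 10.3% the ETS motif, 3.07% the OVOL motif and 1.73% the GRHL motif. Among the members, 4 windows besides these were matched by symbol, 2 for EHF and 2 for KLF5. The EHF windows hold none of the 5 motifs, and 1 KLF5 window holds 2 GC boxes, with first bases 209 and 48 bases before the start. GRHL2, OVOL1, OVOL2, ESRP1 and ESRP2 had no entry. A match is a description of letters and not a site of binding.

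GRHL1 codes for a grainyhead-like factor of surface epithelia that drives desmosome genes. It measured 7.53, 7.25 and 7.43 log2 units on control arrays 1 to 3, 6.67, 6.85 and 6.38 in the sgRNA-A clone, and 7.12, 6.89 and 7.07 in the sgRNA-B clone. The 3 groups did not overlap: control was highest, sgRNA-B was between, and sgRNA-A was lowest, with replicate 3 of sgRNA-A the lowest array of all. The group means were 7.40 ± 0.14, 6.63 ± 0.24 and 7.03 ± 0.12 (SD, n = 3 each). With sgRNA-A, GRHL1 fell by 0.77 on the log2 scale (SE 0.12, 95% confidence interval -1.03 to -0.51; adjusted p = 0.00512, limma), to 58.6% of the control signal. With sgRNA-B its fold change was -0.38 (SE 0.12, interval -0.64 to -0.11) and did not pass (adjusted p = 0.127, limma). Without replicate 3 of sgRNA-A, the array that stood apart, the sgRNA-A fold change was -0.64 and still passed (adjusted p = 0.0173, limma).

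GRHL2, its paralog, which sustains CDH1 and claudin expression, did not pass in any comparison. GRHL2 measured 9.16, 9.03 and 9.17 log2 units in control cells, 9.14, 9.05 and 9.10 in the sgRNA-A clone, and 9.14, 9.10 and 9.13 in the sgRNA-B clone. The groups overlapped, and the whole range over 9 arrays was 0.13. The 95% intervals of its log2 fold change were -0.14 to 0.09 with sgRNA-A and -0.11 to 0.12 with sgRNA-B.

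ELF3 codes for an ETS-domain activator found in differentiated epithelia. It measured 9.05, 9.19 and 9.14 log2 units on the control arrays, 8.71, 8.79 and 8.83 in the sgRNA-A clone, and 9.04, 8.98 and 9.05 in the sgRNA-B clone. All sgRNA-A arrays lay below all others, and the sgRNA-B arrays overlapped the control arrays, where the highest sgRNA-B value and the lowest control value both round to 9.05. The means were 9.13 ± 0.07 in control cells, 8.77 ± 0.06 in the sgRNA-A clone and 9.03 ± 0.04 in the sgRNA-B clone (SD, n = 3 each). ELF3 fell by 0.35 with sgRNA-A (SE 0.06, interval -0.47 to -0.23; adjusted p = 0.00575, limma), to 78.3% of the control signal. Its fold change with sgRNA-B was -0.10 (interval -0.22 to 0.02; adjusted p = 0.454, limma). In the sgRNA-A arrays GRHL1 was lowest in replicate 3 and ELF3 was highest in it, so the order of the cultures differed between these genes.

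EHF, an ETS factor of the same epithelial subgroup as ELF3, measured 10.47, 10.45 and 10.53 log2 units in control cells, 10.37, 10.29 and 10.30 in the sgRNA-A clone, and 10.42, 10.33 and 10.38 in the sgRNA-B clone. The arrays of both guides lay below every control array, the closest being sgRNA-B replicate 1 at 10.42 beside control replicate 2 at 10.45. The log2 fold changes were -0.16 with sgRNA-A (SE 0.04, interval -0.25 to -0.07; adjusted p = 0.0772, limma) and -0.10 with sgRNA-B (interval -0.20 to -0.01; adjusted p = 0.262, limma), and neither passed. With the dimmest 50% of genes removed, which leaves fewer genes to adjust over, the sgRNA-A value passed (adjusted p = 0.0376, limma).

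The OVOL repressors had fold changes of opposite sign, and neither passed the test. OVOL2 measured 6.37, 6.48 and 6.53 log2 units in control cells, 6.13, 6.18 and 6.14 in the sgRNA-A clone, and 6.25, 6.11 and 6.30 in the sgRNA-B clone. All 6 arrays of the guides lay below the control arrays, and the log2 fold changes were -0.31 (interval -0.52 to -0.10; adjusted p = 0.151, limma) and -0.24 (interval -0.45 to -0.03; adjusted p = 0.259, limma). With a variance that does not follow the mean level, the sgRNA-A value of OVOL2 passed (adjusted p = 0.0489, limma). OVOL1 measured 7.34, 7.32 and 7.29 in control cells, 7.46, 7.52 and 7.43 in the sgRNA-A clone, and 7.60, 7.38 and 7.15 in the sgRNA-B clone. Its sgRNA-A arrays lay above the control arrays (log2 fold change 0.15, interval -0.06 to 0.37; adjusted p = 0.576, limma), and its sgRNA-B arrays were spread on both sides of them (0.06, interval -0.16 to 0.27). The SD of OVOL1 with sgRNA-B was 0.23, against 0.03 in control cells, and its sgRNA-B fold change was -0.06 without replicate 1 of sgRNA-B and 0.17 without replicate 3.

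KLF5 measured 9.42, 9.54 and 9.47 log2 units in control cells, 9.45, 9.25 and 9.35 in the sgRNA-A clone, and 9.30, 9.30 and 9.34 in the sgRNA-B clone. The sgRNA-B arrays lay below control, while replicate 1 of sgRNA-A lay among the control arrays. The log2 fold changes were -0.13 with sgRNA-A (interval -0.25 to -0.01; adjusted p = 0.337, limma) and -0.16 with sgRNA-B (interval -0.29 to -0.04; adjusted p = 0.164, limma).

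The splicing factors did not pass in any comparison. ESRP1 measured 11.22, 11.23 and 11.25 log2 units in control cells, 11.29, 11.19 and 11.26 in the sgRNA-A clone, and 11.29, 11.29 and 11.25 in the sgRNA-B clone, a range of 0.10 over all arrays. Its intervals were -0.06 to 0.09 with sgRNA-A and -0.03 to 0.12 with sgRNA-B, the narrowest of the 9 members. ESRP2 measured 9.81, 9.73 and 9.86 in control cells, 9.86, 9.93 and 9.76 in the sgRNA-A clone, and 9.78, 9.60 and 9.64 in the sgRNA-B clone. Its groups overlapped in each comparison, and its fold changes were 0.04 with sgRNA-A (interval -0.09 to 0.17) and -0.13 with sgRNA-B (interval -0.26 to 0.00; adjusted p = 0.339, limma). These values are levels of whole genes, and exon choice was not measured.

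**Figure D2:**
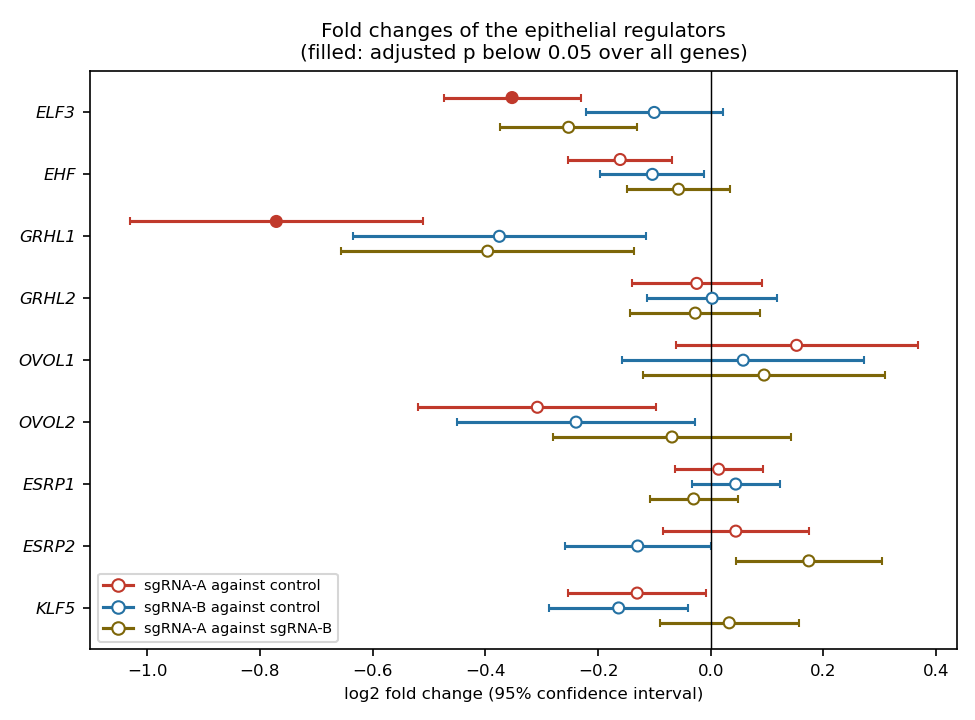
Log2 fold change of each regulator (horizontal axis) with its 95% confidence interval, for each guide against control and for sgRNA-A against sgRNA-B; filled points passed an adjusted p of 0.05 over all genes. The filled points are GRHL1 at -0.77 and ELF3 at -0.35, both with sgRNA-A.

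Set against each other, the clones were not shown to differ in any of the 9 genes: 0 were called between sgRNA-A and sgRNA-B in limma, where 0.104% of all genes were called, and 3 had an unadjusted p below 0.05, as 10.5% of all genes did. These were ELF3 (log2 difference -0.25, interval -0.37 to -0.13; adjusted p = 0.138, limma), GRHL1 (-0.40, interval -0.66 to -0.14; adjusted p = 0.279, limma) and ESRP2 (0.17, interval 0.04 to 0.30; adjusted p = 0.336, limma). ELF3 and GRHL1 were lower on every sgRNA-A array than on any sgRNA-B array, a separation in that direction seen at 7.34% of genes. So the falls of GRHL1 and ELF3 passed with sgRNA-A and not with sgRNA-B, and the difference between the guides did not pass for either gene. With the mean of both guides against control, GRHL1 (-0.57, adjusted p = 0.00734, limma) and ELF3 (-0.23, adjusted p = 0.0198, limma) fell, where 3.57% of all genes were called, 1.8% lower and 1.77% higher. That call of GRHL1 was lost without control replicate 1 (adjusted p = 0.0618, limma), and that of ELF3 without control replicate 2 (0.0867) or 3 (0.0773), and in a fit that took both guides as 1 group (0.160).

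The members that lay below all control arrays on every guide array numbered 4 with sgRNA-A (ELF3, EHF, GRHL1 and OVOL2) and 4 with sgRNA-B (EHF, GRHL1, OVOL2 and KLF5), where 8.78% and 10.5% of all genes showed this. EHF, GRHL1 and OVOL2 are in both counts. The share of all genes in both is not given here, and both guides share the control arrays, so nothing is read from this overlap. OVOL1 with sgRNA-A and ESRP1 with sgRNA-B lay above every control array, as 8.98% and 9.67% of genes did.

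**Figure D3:**
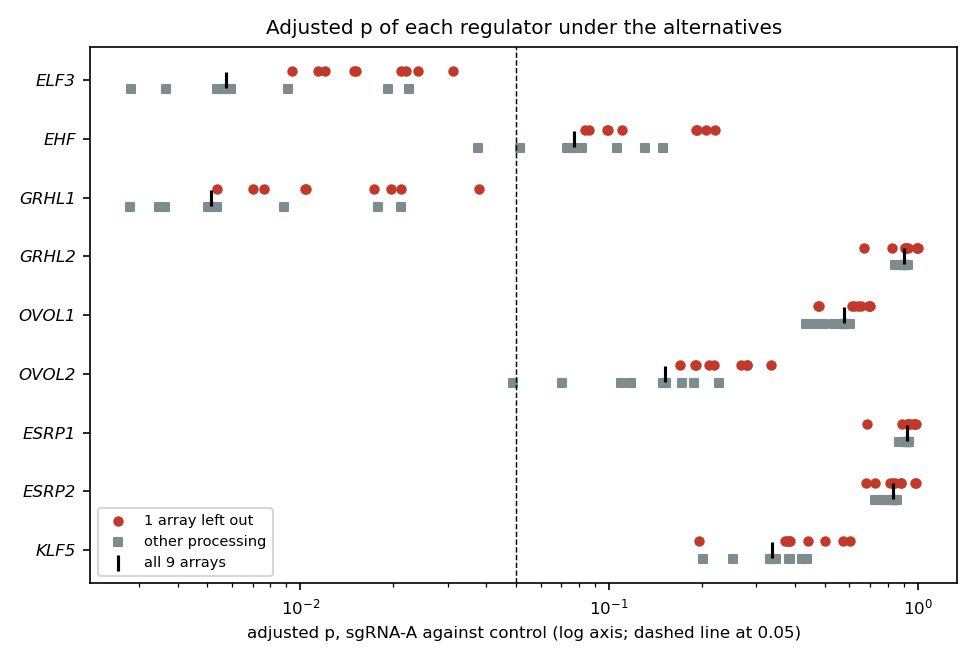
Adjusted p of each regulator for sgRNA-A against control (horizontal log axis, dashed line at 0.05) with all 9 arrays, with 1 array left out, and under other processing. GRHL1 and ELF3 stay below 0.05 throughout, at up to 0.0379 and 0.0311, while EHF and OVOL2 each cross the line under 1 setting.

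Of the 9 members, 8 form 4 pairs of paralogs (KLF5 has none among them), and the difference in log2 level between the members of a pair, taken on each array, shows whether they moved unequally. GRHL1 minus GRHL2 was -1.63, -1.79 and -1.74 in control cells, -2.47, -2.20 and -2.73 in the sgRNA-A clone, and -2.02, -2.21 and -2.06 in the sgRNA-B clone. The arrays of both guides lay below control, by 0.75 and 0.38 on average. An exact two-sided permutation test gave p = 0.1 for each guide with 3 arrays against 3, the smallest it can give, and 0.0238 for the 6 guide arrays against 3, also the smallest, with 0.171 after Benjamini-Hochberg adjustment over 12 such comparisons. OVOL1 minus OVOL2 was 0.97, 0.85 and 0.76 in control cells, 1.33, 1.34 and 1.29 in the sgRNA-A clone, and 1.36, 1.27 and 0.85 in the sgRNA-B clone (exact permutation p = 0.0476 for both guides, adjusted 0.171). ELF3 minus EHF averaged -1.35 ± 0.09 in control cells, -1.55 ± 0.10 in the sgRNA-A clone and -1.35 ± 0.03 in the sgRNA-B clone (SD of 3 arrays each). ESRP1 minus ESRP2 averaged 1.43 ± 0.06, 1.40 ± 0.12 and 1.60 ± 0.09. For both guides the exact permutation p was 0.310 for ELF3 minus EHF and 0.452 for ESRP1 minus ESRP2. The 6 guide arrays come from 1 clone per guide, so they are not independent replicates of the activation. With this many arrays no comparison could pass 0.05 after adjustment over 12, so these adjusted values say nothing about whether the members of a pair changed equally.

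Other genes of the same families were measured beside the members. Of 15 relatives (among them GRHL3, ELF1, ELF2, ELF4, ELF5, SPDEF, OVOL3 and KLF2, KLF3, KLF4, KLF6 and KLF7), 0 passed with either guide in limma; the unadjusted p was under 0.05 for 2 and 1 of them. Over all genes 2.18% and 3.07% passed and 13.4% and 14.7% had such an unadjusted p, so a count of 0 among 15 is near the background. Their median log2 fold changes were -0.03 and -0.02, and GRHL3, the third grainyhead-like gene, lay below the silent level in every group, so no fold is given for it. Of the 15, 11 lay above that level. GRHL3 with sgRNA-A and ELF5, also below it, with sgRNA-B are among those counted with an unadjusted p under 0.05. The drivers of the mesenchymal state that OVOL and GRHL factors oppose numbered 11, of which 6 lay above the silent level and 0 passed with either guide in limma (unadjusted p under 0.05 for 2 and 1). GSC, a gene of this list with a mean below the silent level, is in both of these counts. ZEB1 measured 4.20, 4.18 and 4.17 log2 units in control, sgRNA-A and sgRNA-B cells, below the silent level, and SNAI2, a zinc finger repressor, 10.89, 11.00 and 10.81. These genes were named after their values were seen. The precursor genes of the miR-200 family, microRNAs that repress ZEB1, numbered 5 and all lay below the silent level. That level was taken from olfactory receptor genes, and mature microRNAs were not measured. Whether these microRNAs were present was therefore not tested.

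The counts for genes that build the epithelium are read beside the 2.18% and 3.07% of all genes called with each guide. Of 25 junction and surface genes measured, 1 fell with sgRNA-A, 24 did not pass, and the median fold change was -0.08. With sgRNA-B 1 rose, 1 fell, 23 did not pass, and the median was -0.03. The unadjusted p (limma) was below 0.05 for 8 of the 25 with sgRNA-A and 9 with sgRNA-B, against 13.4% and 14.7% of all genes. Fold changes below 0 numbered 21 of the 25 with sgRNA-A and 16 with sgRNA-B, against 48.3% and 51.6% of all genes. KRT7, a simple epithelial keratin, fell by 0.18 with sgRNA-A (adjusted p = 0.0170, limma), which no longer passed once replicate 1 of sgRNA-A (0.0734) or control replicate 1 (0.0769) or 2 (0.0512) was left out. With sgRNA-B the fold change of KRT7 was -0.11 and did not pass (adjusted p = 0.119, limma). DSP, which codes for desmoplakin of the desmosome, fell by 0.26 with sgRNA-B (adjusted p = 0.00677, limma). With sgRNA-A the fold change of DSP was -0.13 and did not pass (adjusted p = 0.202, limma). TJP3, a tight junction scaffold, rose by 0.44 with sgRNA-B (adjusted p = 0.0183, limma) and was lower with sgRNA-A than with sgRNA-B by a log2 difference of -0.60 (adjusted p = 0.0282, limma). Its rise was lost without sgRNA-B replicate 1 (0.0909) or 2 (0.0617) or control replicate 1 (0.0855) or 3 (0.0563), and the difference between the guides without any 1 of the 6 guide arrays (0.0720 to 0.184).

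Among 19 measured genes reported as targets of the 9 factors, 2 fell with sgRNA-A and 3 with sgRNA-B, 0 rose with either, and the medians were -0.08 and -0.04. Over all genes 1.22% and 1.51% fell. The unadjusted p (limma) was below 0.05 for 6 of the 19 with sgRNA-A and 8 with sgRNA-B, against 13.4% and 14.7% of all genes. CDH1, CLDN3, CLDN4, CLDN7, RAB25 and EPCAM are also among the junction and surface genes above, so the counts of these lists are not separate observations. FGFBP1, a carrier of fibroblast growth factors and a KLF5 target, fell from 7.64 ± 0.05 log2 units to 7.02 ± 0.23 with sgRNA-A and 6.96 ± 0.14 with sgRNA-B (adjusted p = 0.0110 and 0.00477, limma). PTGS2, a prostaglandin synthase reported as an ELF3 target, fell from 5.18 ± 0.20 to 4.56 ± 0.16 and 4.66 ± 0.09 (adjusted p = 0.0148 and 0.0296, limma), near the silent level. EGFR, a growth factor receptor, fell by 0.35 with sgRNA-B (adjusted p = 0.00202, limma). With sgRNA-A the fold change of EGFR was -0.09 and did not pass (adjusted p = 0.4625, limma). The call of FGFBP1 with sgRNA-A was lost without sgRNA-A replicate 1 (0.0509). That of PTGS2 with sgRNA-A was lost without sgRNA-A replicate 3 (0.0605) or control replicate 1 (0.0699), and with sgRNA-B without any 1 sgRNA-B array or control replicates 1 or 3 (0.0610 to 0.121). CDH1, CLDN4 and CLDN7, in the same list, did not pass with either guide.

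Lists around the ESRP proteins are also read beside the 2.18% and 3.07% of all genes called. Of 18 other splicing regulators, 0 passed with sgRNA-A in limma (3 had an unadjusted p under 0.05) and 1 rose with sgRNA-B: KHDRBS1, the RNA-binding protein Sam68, by 0.19 (adjusted p = 0.0291, limma). That call was lost without any 1 sgRNA-B array or control replicates 2 or 3 (0.0607 to 0.105). The sgRNA-A fold change of KHDRBS1 was 0.18 (adjusted p = 0.0536, limma), so its rise was not shown to be particular to sgRNA-B. With sgRNA-B, 6 of the 18 had an unadjusted p under 0.05 in limma. Over all genes, 13.4% with sgRNA-A and 14.7% with sgRNA-B had such an unadjusted p. Of 9 genes whose exons ESRP proteins are known to regulate, 2 with sgRNA-A and 1 with sgRNA-B had such an unadjusted p. In limma, 1 of the 9 fell with each guide and 0 rose. It was the kinase gene SLK, by 0.18 with sgRNA-A (adjusted p = 0.0182, limma) and 0.23 with sgRNA-B (adjusted p = 0.00315, limma), the first of which was lost without sgRNA-A replicate 2 (0.0714) or control replicate 1 (0.0769).

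Markers of cell types were measured beside these results. The log2 of the summed signal of the 6 lung epithelial markers was 14.812 to 14.874 in control cells. It was 14.780 to 14.794 in the sgRNA-A clone and 14.799 to 14.809 in the sgRNA-B clone. The markers did not all follow this sum. The sgRNA-A clone had a negative log2 fold change for 4 of the 6, and the sgRNA-B clone for 3. EPCAM stood above all control arrays on every guide array (0.06 for sgRNA-A, 0.09 for sgRNA-B). Neither value passed (adjusted p = 0.281 and 0.101, limma). KRT8 had fold changes of 0.05 and 0.21, and its arrays overlapped those of control. Of 2 basal and squamous markers measured, 1 lay above the silent level. Their log2 summed signal was 5.73 to 5.84, 5.50 to 5.83 and 5.53 to 5.77 in control, sgRNA-A and sgRNA-B cells. Of 9 mesenchymal markers, 4 lay above the silent level, and the log2 of their summed signal was 10.64 to 10.70 in control cells, 10.76 to 10.83 in the sgRNA-A clone and 10.63 to 10.71 in the sgRNA-B clone. VIM, the intermediate filament vimentin, rose by 0.24 with sgRNA-A (adjusted p = 0.0498, limma), a call lost when any 1 of the 9 arrays was left out (0.0610 to 0.198), and 8 did not pass. With sgRNA-B the fold change of VIM was 0.16 and did not pass (adjusted p = 0.1805, limma). Of 4 immune markers measured, only CD68, a lysosomal protein, lay above the silent level; it rose by 0.30 with sgRNA-A and 0.23 with sgRNA-B (adjusted p = 0.00877 and 0.0253, limma), the second being lost without any 1 sgRNA-B or control array (0.0610 to 0.0980), and the log2 of the list's summed signal was 8.59 to 8.62, 8.86 to 8.89 and 8.79 to 8.85. The part of these markers in the values of the 9 regulators was not tested.

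For the members that fell, the genes with the most similar profiles were found by the root mean square difference between log2 profiles over the 9 arrays, each centred on its own mean. They were chosen for following the member over these arrays, so their differences between groups are a description, with no test. For GRHL1, whose own profile had a root mean square of 0.35, they were NAALADL2 (0.099), CTSH (0.10) and PTGES (0.12). PTGES, a prostaglandin E synthase, measured 8.85 log2 units in control cells, 8.18 in the sgRNA-A clone and 8.54 in the sgRNA-B clone. The cathepsin gene CTSH measured 6.40, 5.78 and 6.18. NAALADL2 measured 5.30 and 4.91 in control and sgRNA-B cells, and its sgRNA-A level of 4.46 lay below the silent level, so no fold is given. For ELF3, with a root mean square of 0.16, they were the kinase gene STK39 (0.055), PYGO1 (0.064) and KITLG, which codes for the KIT ligand (0.066). STK39 measured 11.04, 10.77 and 10.94 log2 units in control, sgRNA-A and sgRNA-B cells, PYGO1 5.99, 5.72 and 5.90, and KITLG 8.88, 8.66 and 8.85.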

How the data were processed

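The deposited table holds 1 log2 level per probe set and array, made by the authors with RMA, per the submitters' processing notes; its version, the array's background settings and the genome build are not given in the sources used here. This method equalises the distributions of the arrays, so a shift common to all genes is removed. Groups and replicate numbers came from the sample titles. Of 24733 probe sets, 23934 had 1 gene symbol, 0 had several and 799 none; 3 symbols had several probe sets, of which the brightest was kept, leaving 23931 genes, with no filter on dim genes. All 9 arrays entered 1 limma 3.58.1 model (R 4.3.3; lmFit, eBayes with trend; 6 residual degrees of freedom) with a mean per group, and p-values were Benjamini-Hochberg adjusted over all genes. Paralog differences used exact permutation tests (scipy 1.17.1). The limma comparison of sgRNA-A with control was tested on simulated data with independent noise between arrays. The other steps were not tested in this way. The members and lists were chosen with earlier results of these data known. Named are all members, called members of each list (up to 4 per comparison) and the 3 genes most like each member that fell. The number of arrays limits the precision. Alternatives were each array left out, the replicate number as a block, other variance models, array weights, the compared groups alone, filters on dim genes, repeated normalization, averaged probe sets and a stricter threshold.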

Additional observations from a re-analysis of the deposited data

Results flagged for a closer look

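TJP3, the tight junction scaffold gene, differed between the guides: it was lower with sgRNA-A (6.48 ± 0.09 log2 units) than with sgRNA-B (7.08 ± 0.07), a log2 difference of -0.60 (adjusted p = 0.0282, limma, n = 3 arrays each), and the control level of 6.63 ± 0.09 lay between them. Without any 1 of the 6 guide arrays the adjusted p was 0.0720 to 0.184.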

How the results depend on the processing

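Over 20 alternatives, the falls of GRHL1 (-0.88 to -0.64) and ELF3 (-0.39 to -0.32) with sgRNA-A kept direction and call. Of 720 values of the 9 regulators over all comparisons and alternatives, 699 kept direction and side of the threshold, 5 lost the call, 6 gained it and 10 changed sign, none of these 10 called. Part of this was fixed in advance, so 699 is no measure of robustness. Each member had 1 probe set, so averaging probe sets left its levels as they were. The arrays were already equal in distribution, so repeated normalization could change little. Leaving out an array of a group outside a comparison left that comparison's fold changes as they were. The sign changes, all without 1 array, were of GRHL2 with sgRNA-B (-0.041 to 0.026) and with both guides (-0.055 to 0.013), OVOL1 with sgRNA-B (-0.056 to 0.17) and between the guides (-0.019 to 0.21), ESRP1 with sgRNA-A (-0.0072 to 0.043) and KLF5 between the guides (-0.016 to 0.082). Genes called with sgRNA-A numbered 522, against 223 to 435 without 1 array, 321 with the compared groups alone, 788 with the dimmest 50% of genes removed and 172 at an adjusted p of 0.01. With sgRNA-B the 735 calls became 353 to 735 and, at 0.01, 283. Between the guides the 25 calls became 6 to 30, 39 without the dimmest 50% and 8 at 0.01. With both guides the 855 calls became 405 to 767 and, at 0.01, 348. Of the 9 regulators, those called with both guides numbered 2, against 1 to 2 without 1 array, 1 with the guides as 1 group, 4 without the dimmest 50% and 1 at 0.01. Without the dimmest 50%, calls over all genes left also grew, to 1194 from 855 of 23931. The 4 are thus no result about the regulators. The cause of these changes was not tested, apart from fewer genes or arrays in the fit. Replicate numbers did not pair the arrays (correlations of same-numbered deviations -0.15 to 0.14); with the replicate block 465, 684, 34 and 798 genes were called in the order above, and 2, 0, 0 and 2 regulators. Dim genes, at or near the silent level, give no measurable fold. PTGS2 lay near that level with both guides, so its fall is given as a call with levels and the size is uncertain.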
